A study of Mus musculus with 4 samples.

Results

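The 7 genes described here encode the parts of caveolae, flask-shaped pits of the plasma membrane: the caveolins Cav1 and Cav2, the cavins Ptrf, Sdpr and Prkcdbp, the ATPase Ehd2 and the membrane-bending protein Pacsin2. They were chosen by name among 50090 gene names of a mouse array, and 14 of its 61307 probes carry these names. The RefSeq gene table of assembly GRCm38.p6 calls Ptrf Cavin1, Sdpr Cavin2 and Prkcdbp Cavin3. RNA came from C3H10T1/2 cells, an established mouse embryo fibroblast line that stops growing on contact and is used to score chemical transformation. The exposed cells received 3-methylcholanthrene (3MC), a polycyclic hydrocarbon that damages DNA, at 2.5 µg/ml for 2 days, and after 4 days in normal medium the phorbol ester TPA, a tumour promoter that activates protein kinase C, at 100 ng/ml over 2 weeks. They then grew in normal medium for 4 weeks. The control cells were cultured for 6 weeks, the time the titles give for both groups, and the labels name no solvent for them. The steps listed for the exposed cells run past 6 weeks, so whether the groups match in culture time is not certain. Each group has 2 arrays, and the labels do not say whether these hold separate cultures. The p-values therefore rest on a spread between arrays that may be technical. The labels describe whole flasks and no picking of transformed foci, so the exposed RNA may mix transformed and other cells, and fewer cells of a kind and less RNA per cell cannot be told apart.

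Caveolae form when caveolin oligomers, which sit in the inner leaflet with cholesterol, are coated from the cytoplasm by cavins. Cav1 and Ptrf are the obligate parts outside striated muscle, where Cav3 takes the place of Cav1. Ehd2 rings the neck and holds the pit at the surface, and Pacsin2 is an F-BAR protein that shapes the neck. Fibroblasts, adipocytes and endothelial cells are rich in caveolae, and a lowered level of caveolin 1 is a known feature of fibroblasts transformed by several oncogenes. Prkcdbp and Sdpr were first described as binding partners of protein kinase C isoforms, the enzymes that TPA activates. Caveolae also flatten under membrane stretch and so serve as a reserve of membrane.

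The probes are 60-base oligonucleotides. As the files write them, 11 of the 14 have at least 1 of 3 forward reading frames free of stop codons. The following 3 are shown because an open frame of each holds the codons of a known part of the protein, marked in capitals. In Cav1 (probe 2, chromosome 6) these encode a run of aromatic residues at the end of the scaffolding domain. In Ehd2 (probe 2, chromosome 7) they encode the DxxG motif of the nucleotide-binding domain, and in Pacsin2 (probe 3, chromosome 15) the NPF tripeptide, the kind of motif to which the EH domains of EHD proteins bind.
Cav1 probe 2: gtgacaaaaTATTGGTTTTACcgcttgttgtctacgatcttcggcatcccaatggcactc
Ehd2 probe 2: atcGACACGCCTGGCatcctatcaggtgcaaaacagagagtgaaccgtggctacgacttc
Pacsin2 probe 3: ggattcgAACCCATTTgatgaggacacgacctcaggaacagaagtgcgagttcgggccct

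Of the 7 genes, 1 passed the test: Pacsin2 was 1.65-fold higher in 3MC+TPA cells. The caveolins, the 3 cavins and Ehd2 did not pass in either direction, and their 95% intervals reach at most 2.02-fold. Levels are given on the log2 scale relative to the 75th percentile of each array's processed signal, so 0 is the brightness that 75% of probes do not exceed. All 14 probes were well above background on all 4 arrays, by the scanner's flag, and none was saturated. Each gene was read by its brightest probe, called probe 1, and tested with limma over all 24981 features measured in at least 1 group, with Benjamini-Hochberg adjustment and a threshold of 0.05. At this threshold 7.36% of all features were called higher and 8.37% lower, so 1 call among 7 genes (15.7% of all features in either direction) is near the background. At an unadjusted limma p under 0.05 the count was also 1 of 7, where 33.6% of all features passed.

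**Figure D1:**
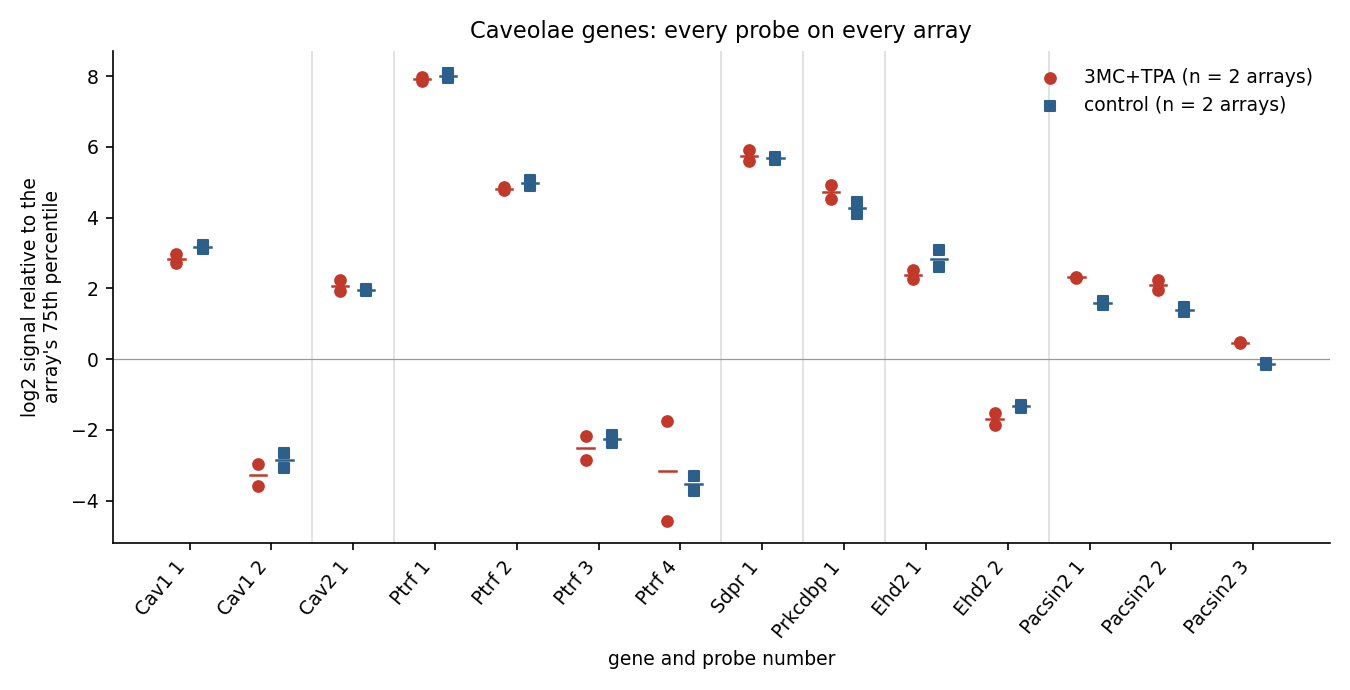
Log2 signal relative to the 75th percentile of the array (y axis) for each of the 14 probes (x axis, genes separated by grey lines) on the 2 3MC+TPA arrays (red circles) and the 2 control arrays (blue squares), with a short line at each group mean. The circles of the 3 Pacsin2 probes lie above the squares, and those of Ptrf probe 4 lie far apart, at -4.57 and -1.76.

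Cav1, the caveolin that drives the formation of the pits, read 2.96 and 2.71 in 3MC+TPA cells, against 3.11 and 3.21 in control cells (probe 1). Both exposed arrays lay below both control arrays, by a small distance. The log2 change was -0.33 ± 0.17 (SE; 95% interval -0.76 to 0.10; limma adjusted p = 0.242), or 1.26-fold lower. This exceeds the gap between arrays of a group, 0.26 in 3MC+TPA cells and 0.10 in control cells, without passing the test. The absolute change of Cav1 is larger than that of 49.4% of all features tested, which puts it at the middle of the array. Probe 2, printed above, read -2.96 and -3.59 in 3MC+TPA cells, against -3.07 and -2.65 in control cells, and its groups overlapped (log2 change -0.41 ± 0.28, SE; adjusted p = 0.356 over all probes).

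Cav2, which needs Cav1 to leave the Golgi, is read by 1 probe. It read 2.23 and 1.93 in 3MC+TPA cells, against 1.93 and 1.98 in control cells. The groups overlapped, and the log2 change of 0.12 ± 0.17 (SE; 95% interval -0.33 to 0.57) did not pass (adjusted p = 0.679). Without 3MC+TPA array 1 the sign turned, at -0.03.

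Among the cavins, Ptrf, which coats the pits and recruits the other cavins, is read by 4 probes. Probe 1 stood at 7.85 and 7.98 in 3MC+TPA cells, against 8.08 and 7.94 in control cells. These groups overlapped, and the log2 change was -0.10 ± 0.16 (SE; 95% interval -0.50 to 0.31; adjusted p = 0.716). Its unscaled signal was 160916 and 188496 on the 3MC+TPA arrays, against 146154 and 145904 on the control arrays, so its direction depends on the scaling, and it was 0.09 after quantile normalization. Probe 2 gave -0.15 ± 0.16 and probe 3 gave -0.26 ± 0.26 (log2 change and SE), and neither passed. For probe 4 the exposed arrays lay on either side of the control arrays, at -4.57 and -1.76 in 3MC+TPA cells, against -3.32 and -3.72 in control cells. Its unscaled signals were 29.5 and 220.1 in 3MC+TPA cells, against 54.1 and 45.2 in control cells, and its standard error of 0.89 is the largest among the 14 probes.

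Sdpr, a cavin that binds phosphatidylserine and helps bend the membrane, stood at 5.91 and 5.59 in 3MC+TPA cells, against 5.64 and 5.72 in control cells. The exposed arrays again enclosed the control arrays, with a log2 change of 0.07 ± 0.18 (SE; 95% interval -0.39 to 0.53; adjusted p = 0.826) that turned to -0.09 without 3MC+TPA array 1. Prkcdbp, the third cavin of this set, stood at 4.52 and 4.91 in 3MC+TPA cells, against 4.44 and 4.09 in control cells. Both exposed arrays were higher, but the gaps within groups, 0.39 and 0.35, are nearly as large as the log2 change of 0.45 ± 0.22 (SE; 95% interval -0.11 to 1.01; adjusted p = 0.220). The cavins thus gave no call among 6 probes.

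Ehd2, which restrains caveolae at the plasma membrane, stood at 2.27 and 2.51 in 3MC+TPA cells, against 2.61 and 3.07 in control cells (probe 1). Both exposed arrays were lower, with a log2 change of -0.45 ± 0.22 (SE; 95% interval -1.01 to 0.11; adjusted p = 0.219). Probe 2, which holds the DxxG codons, went the same way, at -1.85 and -1.53 in 3MC+TPA cells, against -1.39 and -1.28 in control cells. Its groups did not overlap either, and its log2 change of -0.35 ± 0.18 (SE) did not pass (adjusted p = 0.241 over all probes).

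Pacsin2 was the gene that rose. Probe 1 read 2.29 and 2.33 in 3MC+TPA cells, against 1.65 and 1.52 in control cells. The group means were 2.31 ± 0.02 in 3MC+TPA cells and 1.59 ± 0.09 in control cells (SD, n = 2 each). The log2 change was 0.72 ± 0.15 (SE; 95% interval 0.34 to 1.11; limma adjusted p = 0.0365), larger than that of 78.3% of all features tested. Probe 2 read 1.96 and 2.23 in 3MC+TPA cells, against 1.46 and 1.32 in control cells. Probe 3, with the NPF codons, read 0.46 and 0.48 in 3MC+TPA cells, against -0.10 and -0.17 in control cells. All 3 probes were higher on both exposed arrays, with log2 changes of 0.72, 0.70 and 0.61. Fitted as features of their own over 32107 probes, with 7.44% of probes called higher and 8.05% lower, probe 1 passed (adjusted p = 0.0380), while probes 2 and 3 missed the threshold narrowly (adjusted p = 0.0576 and 0.0565). The call also ended when any of the 4 arrays was left out, with log2 changes of 0.66 to 0.79 and adjusted p of 0.0755 to 0.144.

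**Figure D2:**
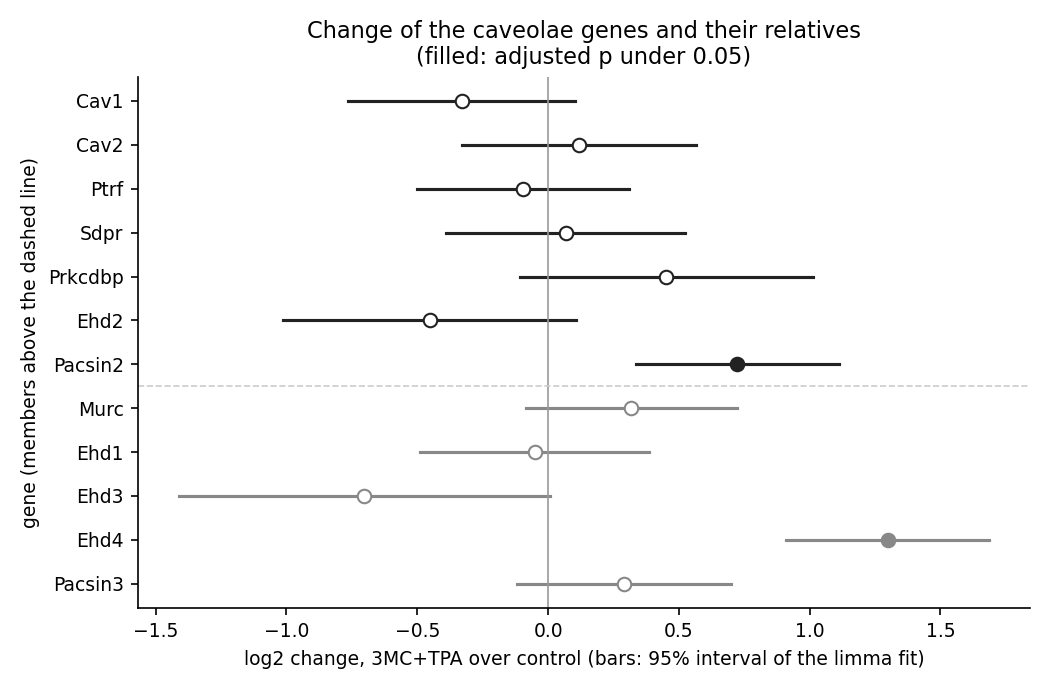
Log2 change, 3MC+TPA over control (x axis), of the 7 caveolae genes and, under the dashed line, of their 5 measured relatives, with 95% intervals of the limma fit. Filled circles passed an adjusted p of 0.05: Pacsin2 at 0.72 and Ehd4 at 1.30.

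Over the set, 2 genes (Prkcdbp and Pacsin2) had both exposed arrays above both control arrays, 2 (Cav1 and Ehd2) had them below, and 3 overlapped. Of all features, 63.9% had groups that do not overlap, 31.8% higher and 32.1% lower, so 4 of 7 is near the background. The median log2 change of the 7 genes was 0.07, against -0.01 over all features, and their median absolute change was 0.33, against 0.33. The changes ran from -0.45 for Ehd2 to 0.72 for Pacsin2. The genes whose profile over the 4 arrays lay nearest to that of Cav1, among 22647 features well above background on all arrays and by Euclidean distance of centred log2 values, were the transcripts u196701_mRNAlike and u191257_mRNAlike and the Mediator subunit gene Med19. Their log2 changes were -0.32, -0.31 and -0.34. Since these features were picked for nearness to Cav1 over 4 arrays, changes close to that of Cav1 follow from the choice.

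Among the relatives of these genes, Ehd4 rose and the others did not pass. Ehd4, an endosomal EHD protein, stood at 5.44 and 5.33 in 3MC+TPA cells, against 4.12 and 4.06 in control cells, which is 2.46-fold higher (log2 change 1.30 ± 0.15, SE; limma adjusted p = 0.0080). Without 3MC+TPA array 1 it missed the threshold (log2 change 1.24, adjusted p = 0.0522). Ehd1, which acts in endosomal recycling, gave -0.05 ± 0.17 (log2 change and SE). Its sign turned under 3 of 17 other settings, 2 of them other scalings. Ehd3 stood at 2.56 and 2.29 in 3MC+TPA cells, against 3.48 and 2.77 in control cells, with a log2 change of -0.70 ± 0.28 (SE; adjusted p = 0.152). Pacsin3 gave 0.29 ± 0.16 (adjusted p = 0.269). Murc, the cavin named for muscle (Cavin4 in RefSeq), was well above background on all 4 arrays, at 0.80 and 0.94 in 3MC+TPA cells, against 0.61 and 0.49 in control cells (log2 change 0.32 ± 0.16, SE; adjusted p = 0.227). Cav3, the muscle caveolin, and Pacsin1, the neuronal PACSIN, were not well above background on any array and were not tested. In all, 1 of 5 tested relatives rose and 0 fell, which is near the 15.7% of all features called in either direction, with a median log2 change of 0.29. Without scaling Murc and Pacsin3 passed as well (adjusted p = 0.0465 and 0.0430), a setting that moves the median of all features to 0.34.

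Some genes whose products act on caveolae or are found in them rose in 3MC+TPA cells. Of 16 listed, 13 were tested, 4 rose and 0 fell (median log2 change 0.30), where 7.36% of all features were called higher. The list was chosen with earlier results of these data known, so this contrast is no test of caveola partners as a set. Plvap, which forms the diaphragm across the mouth of endothelial caveolae, stood at -0.92 and -0.51 in 3MC+TPA cells, against -3.22 and -3.70 in control cells, a 6.71-fold difference (log2 change 2.75 ± 0.25, SE; limma adjusted p = 0.0039). Its groups lay far apart, but the log2 change was 1.86 with normexp background correction, and the call ended with no filter on dim probes (adjusted p = 0.0509). Endothelial markers were at or near background in both groups. Of 6 markers, 4, among them Pecam1 and Cdh5, were not well above background on any array, and the summed signal of all 6 relative to the 75th percentile was 0.139 and 0.184 on the 3MC+TPA arrays, against 0.147 and 0.138 on the control arrays. Of the other 2 markers, Vwf did not pass, and Tek was at least 1.77-fold higher, with no control array well above background (adjusted p = 0.0090). Tek entered the test only through the 3MC+TPA arrays, and its p rests on control values below background. Its adjusted p was 0.0550 and 0.0616 without 3MC+TPA array 1 and array 2, 0.184 with normexp background correction and 0.0673 with no filter on dim probes. The part of endothelial cells in the Plvap difference was not tested.

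Fyn, a Src family kinase that is acylated and can associate with caveolin 1, stood at 3.04 and 3.06 in 3MC+TPA cells, against 1.16 and 0.25 in control cells. It was 5.08-fold higher (log2 change 2.35 ± 0.32, SE; adjusted p = 0.0118), and all 4 of its probes were called higher. The control arrays stood apart, so that the log2 change was 1.89 without control array 2, and without 3MC+TPA array 1 or array 2 the call ended (adjusted p = 0.0683 and 0.0740). Ptk2, the focal adhesion kinase, read 1.63 and 1.77 in 3MC+TPA cells, against 0.85 and 0.74 in control cells, which is 1.87-fold higher (adjusted p = 0.0224). Dnm2, the dynamin that cuts vesicle necks, read 1.93 and 2.17 in 3MC+TPA cells, against 1.29 and 1.25 in control cells, which is 1.72-fold higher (adjusted p = 0.0368). For Ptk2 1 of 2 probes was called, and for Dnm2 1 of 3. Without any 1 array neither passed, with adjusted p from 0.0508 to 0.109 for Ptk2 and from 0.0887 to 0.151 for Dnm2. The kinase genes Src and Csk and the kinase C genes Prkca and Prkcd were among the 9 tested genes of this list that did not pass.

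None of 7 flotillin and stomatin-type genes passed over all features, and 1, Flot2, had an unadjusted limma p under 0.05. Flot2, of the flotillin scaffold of membrane rafts, read 2.38 and 2.66 in 3MC+TPA cells, against 1.85 and 1.96 in control cells (log2 change 0.61 ± 0.17, SE; adjusted p = 0.0757). Flot2 passed with normexp background correction, without scaling and with a trend in the prior variance (adjusted p = 0.0326, 0.0256 and 0.0423). Of 20 clathrin coat and adaptor genes 19 were tested and 0 passed, with 7 at an unadjusted limma p under 0.05, where 33.6% of all features passed. At the adjusted threshold, which no gene of these 2 lists passed, 15.7% of all features were called in either direction. The median log2 change of the clathrin list was 0.25, against -0.01 over all features, and 12 of its genes had both exposed arrays above both control arrays, a separation that 31.8% of all features show. This list too was chosen with earlier results known, so the contrast is no test of the set. Its largest change was that of Eps15, an adaptor with EH domains, at 2.74 and 2.78 in 3MC+TPA cells, against 2.17 and 1.84 in control cells (log2 change 0.75 ± 0.18, SE; adjusted p = 0.0509). Eps15 lies just short of the threshold and passed under some settings, with adjusted p from 0.0121 to 0.212 over the alternatives.

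**Figure D3:**
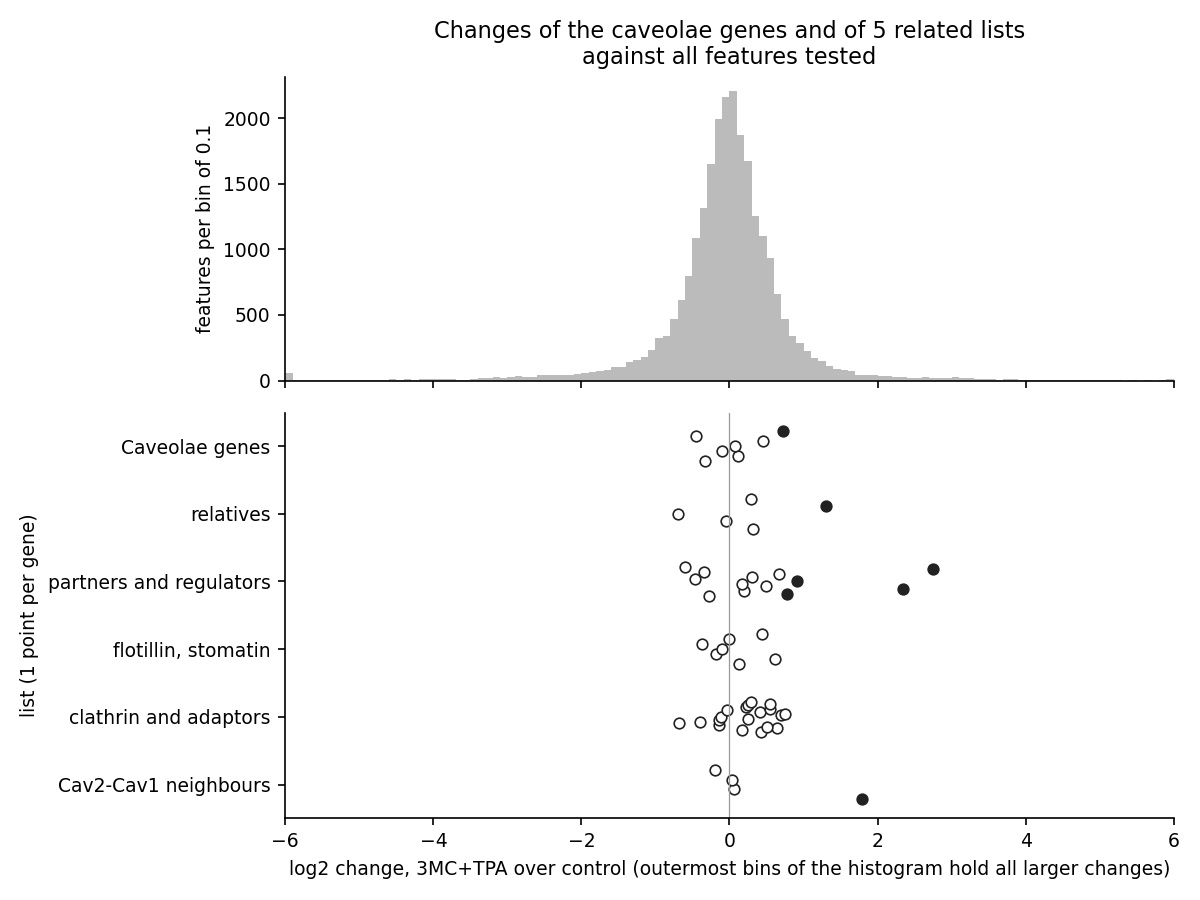
Top: histogram of the log2 change, 3MC+TPA over control, of all features tested, in bins of 0.1. Bottom: the tested genes of the caveolae set and of 5 related lists, 1 circle a gene, filled at an adjusted p under 0.05. The caveolae genes spread over the body of the histogram, from -0.45 to 0.72, and Plvap and Fyn of the partner list lie to the right of most features, at 2.75 and 2.35.

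Cav2 and Cav1 lie next to each other on chromosome 6, where Tes, on the Cav2 side, rose in 3MC+TPA cells. Of a list of 8 neighbours, 4 were tested under their listed names, of which 1 passed as higher and 0 as lower, where 7.36% of all features were called higher and 8.37% lower. In the RefSeq table the order of protein-coding genes is Foxp2, Mdfic, Tfec, Tes, Cav2, Cav1, Met, Capza2, St7, Wnt2 and Asz1. On the Cav2 side, Tes, a LIM protein of focal adhesions, stood at 0.11 and 0.29 in 3MC+TPA cells, against -1.62 and -1.57 in control cells. It was 3.46-fold higher (log2 change 1.79 ± 0.16, SE; limma adjusted p = 0.0037) and passed under 15 of 16 alternatives with an adjusted p. Mdfic and Foxp2, which are not on that list, were added after their values were seen, and no count includes them. Mdfic, which has a MyoD family inhibitor domain, read 2.50 and 2.33 in 3MC+TPA cells, against 1.40 and 1.16 in control cells (adjusted p = 0.0164). Without control array 2, 3MC+TPA array 1 or 3MC+TPA array 2 its adjusted p was 0.0565, 0.0852 and 0.0702. Foxp2, a forkhead transcription factor, was dim, at -3.24 and -3.81 in 3MC+TPA cells and not well above background in control cells, which makes it at least 2.32-fold higher (adjusted p = 0.0019). It entered the test only through the 3MC+TPA arrays, and its p rests on control values below background.

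On the Cav1 side, Met, the receptor of hepatocyte growth factor, read 1.91 and 1.96 in 3MC+TPA cells, against 1.59 and 2.15 in control cells, and its groups overlapped (log2 change 0.06 ± 0.23, SE). Capza2, an actin capping subunit, gave 0.03 ± 0.16 and St7 gave -0.20 ± 0.17 (log2 change and SE), with adjusted p of 0.907 and 0.458. Dimmer probes gave log2 changes of -0.04 and 0.48 for Met and -0.46 for St7. The groups did not overlap for the probes at 0.48 and -0.46. They did not overlap for the brightest St7 probe either, at 2.11 and 2.06 in 3MC+TPA cells, against 2.40 and 2.16 in control cells. Of all features, 63.9% had groups that do not overlap, and no probe of Met or St7 was called over all probes. Tfec (Tcfec in the files), Wnt2, Asz1 and Cftr, the chloride channel gene, were not tested, since neither group was well above background on both arrays. The difference between Tes and Cav2 was not tested.

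**Figure D4:**
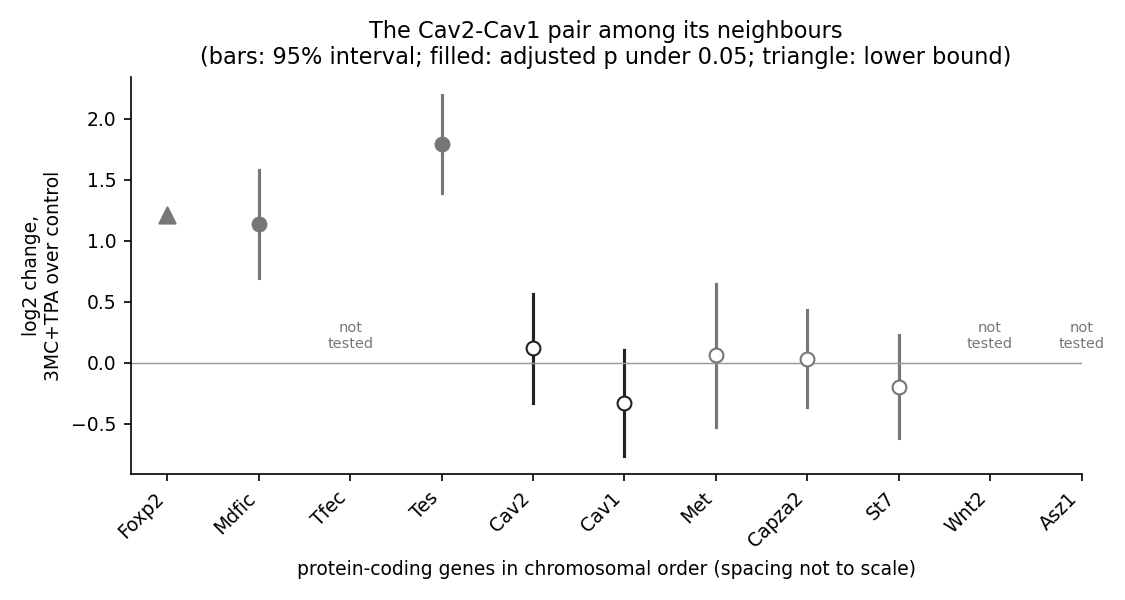
Log2 change, 3MC+TPA over control (y axis), of Cav2 and Cav1 (black) and their neighbours (grey) in chromosomal order (x axis, not to scale), with 95% intervals. Filled circles passed an adjusted p of 0.05, and the triangle of Foxp2 is a lower bound. Tes and Mdfic lie at 1.79 and 1.13, and the 5 genes from Cav2 to St7 lie between -0.33 and 0.12.

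The label of the cells was checked against markers. All 8 fibroblast markers were well above background on all 4 arrays. Of these, Pdgfra and Pdgfrb, receptors of platelet-derived growth factor, were lower in 3MC+TPA cells by log2 changes of -1.47 and -1.02 (adjusted p = 0.0207 and 0.0218), and Thy1 was higher by 2.98 (adjusted p = 0.0469), with control arrays at 2.98 and 0.86. Leaving out control array 1 gave Thy1 a log2 change of 4.04, leaving out control array 2 gave 1.91, and on the authors' values its adjusted p was 0.0506. Pdgfrb missed the threshold without any 1 array, and Pdgfra and Thy1 without 3MC+TPA array 1 or array 2. Among cell types rich in caveolae, the adipocyte markers summed to 11.5 and 9.59 times the 75th percentile signal on the 3MC+TPA arrays, against 15.2 and 18.6 on the control arrays. Of these 6 markers, 2 were well above background on all 4 arrays. Pparg was lower (log2 change -1.28), while the groups of Fabp4 overlapped (log2 change 0.06). The muscle markers summed to 6.33 and 7.35 on the 3MC+TPA arrays, against 9.44 and 5.94 on the control arrays. Most of the muscle sum was Acta1, whose groups overlapped (log2 change -0.12). Myog, Myod1 and Ckm were not well above background on any array. Epithelial markers summed to 0.277 and 0.306 in 3MC+TPA cells, against 0.2697 and 0.3002 in control cells. Leukocyte markers summed to 2.92 and 3.73 in 3MC+TPA cells, against 16.74 and 10.74 in control cells. Most of the leukocyte sum was 1 gene, Cd74, at log2 levels of 1.35 and 1.71 in 3MC+TPA cells, against 4.03 and 3.35 in control cells. Ptprc, Lyz2 and Itgam were not well above background on any array. Of the tested genes, 1 of 2 adipocyte, 1 of 4 muscle, 0 of 3 epithelial and 2 of 3 leukocyte markers passed as lower, and 0 passed as higher. Those lower were Pparg, Cnn1, Cd74 and Coro1a. Cnn1 read -4.82 and -4.54 in 3MC+TPA cells, against -1.26 and -2.16 in control cells. It entered the test only through the control arrays, since 1 of the 2 exposed arrays was well above background. Its p thus rests in part on a value near background. Of all features, 8.37% were called lower and 7.36% higher. Within lists the directions differed, as the muscle marker Des and the leukocyte marker Cd68 gave log2 changes of 0.59 and 1.07 without passing (adjusted p = 0.0645 and 0.128). The part of these cell types in the values of the caveolae genes was not tested.

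Whether the calls depend on the processing was read from 17 other settings. Pacsin2 kept a positive change in all 17, from 0.66 to 1.07 on the log2 scale, and passed in 9 of the 16 with an adjusted p. Cav1, Cav2, Ptrf, Sdpr, Prkcdbp and Ehd2 passed in 0 of these 16. The smallest limma adjusted p was 0.0502, for Prkcdbp without scaling, a setting that moves the median of all features to 0.34. The markers Pparg, Cnn1, Cd74 and Coro1a, named above as lower, were not followed over the other settings, so how far their calls hold is not known. Among the other genes named as higher or lower, no filter on dim probes also ended the calls of Fyn, Ptk2, Dnm2, Mdfic, Pdgfra, Pdgfrb and Thy1. The methods' t-test after Benjamini-Hochberg adjustment called none of the genes that were followed. Dnm2 also missed the threshold with the mean over its probes and with the replicate block.

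**Figure D5:**
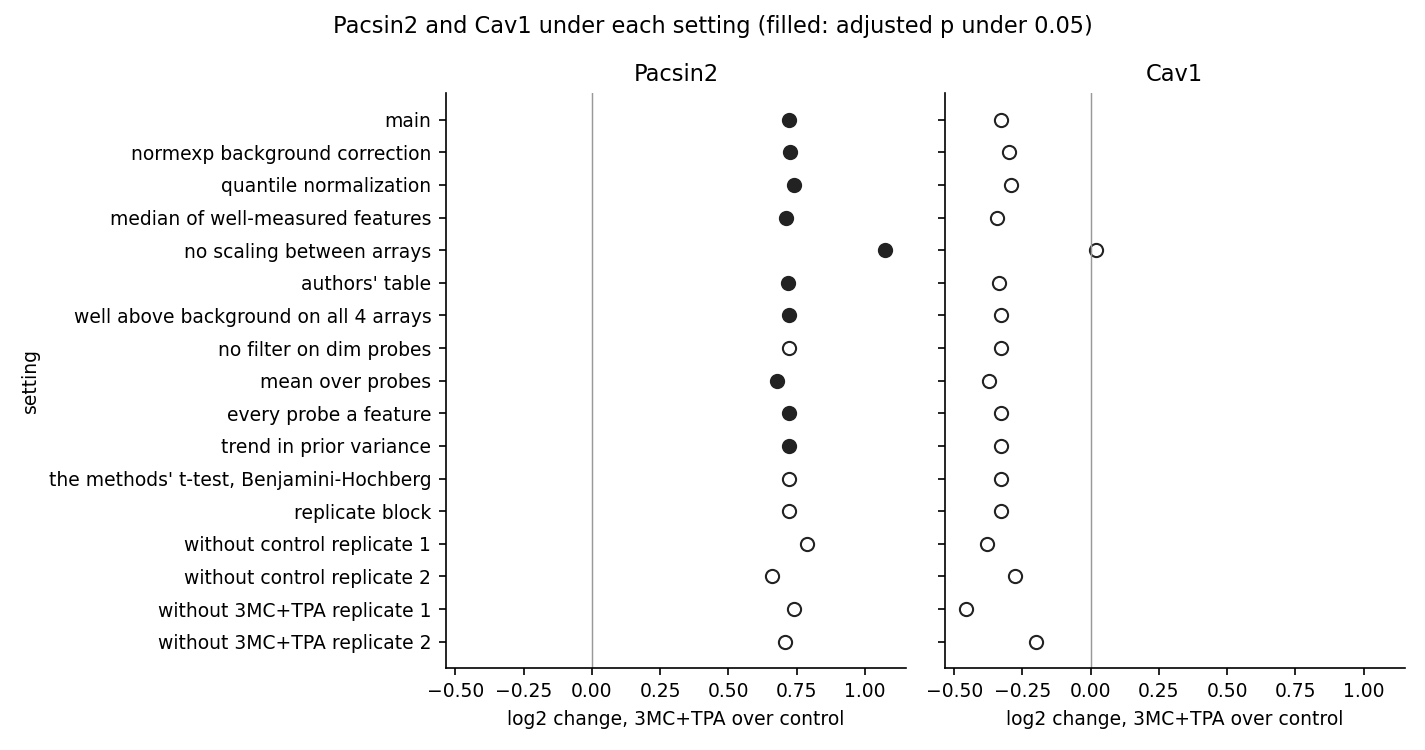
Log2 change, 3MC+TPA over control (x axis), of Pacsin2 (left) and Cav1 (right) as reported (top line) and under each of 16 other settings, filled at an adjusted p under 0.05. Pacsin2 stays between 0.66 and 1.07, and Cav1 runs from -0.46 to 0.02 without a call.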

How the data were processed

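RNA of 2 3MC+TPA and 2 control samples was read on 4 arrays in 1 colour (Cy3), labelled from oligo-dT primers per the labels' protocols. The deposited intensity values come from Agilent Feature Extraction, version 10.7.3.1 per the file headers, with background subtracted and detrended. The deposited table holds the authors' log2 values, which equal the scaled scanner values within 0.01 for at least 61236 probes an array and served as an alternative; its column medians are -4.39 and -4.35 (3MC+TPA) and -4.29 and -4.31 (control), it is neither gene-centred nor turned in sign. Here log2 processed signals were scaled to each array's 75th percentile (698.5 and 744.6 in 3MC+TPA arrays, 538.9 and 594.0 in control arrays). Control spots (1319 an array) and outlier spots (20 to 68) were left out, spots of 1 probe averaged, and each gene name read by its brightest probe if well above background on both arrays of a group. Between 32125 and 32512 spots an array were well above background; the number of arrays limits the precision.

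limma 3.58.1 in R 4.3.3 (lmFit, eBayes, 2-sided, no covariates) compared 3MC+TPA with control, with Benjamini-Hochberg adjustment over all 24981 features and a threshold of 0.05; the fit was tested on simulated data. Probes were fitted likewise. For an at-least fold, each dim array was set to the lowest signal of any probe well above background there, or to its own signal if higher. Names follow the files; RefSeq symbols (GRCm38.p6) matched 7 of 7 members by accession. No coordinates are given, since the array was drawn on another build (mm9). The members and lists were chosen with earlier results of these data known. Named were all members, relatives and Cav2-Cav1 neighbours, the called genes of each list or else its largest change, and the 3 profiles nearest to Cav1. Neighbours in the gene order beyond the list were added after their values were seen. All arrays lie on 1 slide with 1 scan date, so no slide block could be run, and group and position on the slide cannot be told apart. Alternatives covered background, scaling, filter, probe, test, replicate block and each array left out.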

Additional observations from a re-analysis of the deposited data

How the results depend on the processing

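Of the 7 genes, Prkcdbp, Ehd2 and Pacsin2 kept their direction under all 17 alternatives. Cav1 turned to 0.0204 and Ptrf to 0.25 without scaling, where the median of all features was 0.34, Ptrf to 0.0939 after quantile normalization, and Cav2 to -0.0308 and Sdpr to -0.0909 without 3MC+TPA replicate 1 (0.269 and 0.227 at most with any 1 array left out); none of these values passed. Pacsin2 was not called, so that 0 genes were higher, with no filter on dim probes (0.72, adjusted p = 0.0899), by the methods' t-test after Benjamini-Hochberg (0.72, adjusted p = 0.137; 0.00801 unadjusted), with the replicate block (0.72, adjusted p = 0.0652) and in the leave-one-out fits (0.66 to 0.79, adjusted p 0.0755 to 0.144), where the lone array is assumed to vary like the other group. The replicate numbers are shared by the groups, but the labels do not say whether same-numbered arrays were handled together. The deviations of same-numbered arrays correlate at 0.0028, which cannot settle this, since it describes the values and not the handling. The replicate block gave 1561 features higher and 1912 lower, against 1838 and 2092 as reported. Counts of all features higher and lower were 346 and 586 with no filter on dim probes and 9 and 12 by the methods' t-test after Benjamini-Hochberg, 2691 and 3006 unadjusted. Leaving out 1 array gave 409 to 1514 higher and 779 to 1827 lower. Without scaling 5319 were higher and 1404 lower, 79.1% of calls higher against 46.8%. Among other genes named, without scaling Ehd1 turned to 0.30, St7 to 0.15, u196701_mRNAlike to 0.0291, Med19 to 0.0075 and u191257_mRNAlike to 0.0381. Ehd1 turned to 0.0398 after quantile normalization and 0.0882 without control replicate 2 (lowest with 1 array left out -0.191), Met to -0.0267 under normexp and -0.22 without control replicate 1 (highest 0.342), and Capza2 to -0.0473 without control replicate 2 (highest 0.114). The bounds of Foxp2 and Tek hold for the values as reported; under normexp their log2 changes were 0.62 and 0.29. The causes were not tested. A slide block was not run, since all arrays share 1 slide.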
